A study of Homo sapiens with 2 samples.

Results

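Chromosome 19 carries the densest collection of C2H2 zinc finger genes of the human genome. The genes described here are the protein-coding genes of this chromosome whose symbol is ZNF followed by a number and an optional letter, and antisense genes, divergent transcripts and pseudogenes named after them were left out. The annotation holds 246 such genes, and 244 of them have a row among the 64081 genes of the deposited counts; ZNF229 and ZNF8 have no matching identifier. LNCaP is an androgen-sensitive cell line from a prostate carcinoma. The cells of both biological replicates, the single condition of the study, were deprived of androgen for 48 h (10% charcoal stripped FBS, 10 mM HEPES), and stranded libraries of their poly(A)+ RNA were sequenced from both ends with reads of 75 nt. No other treatment or genotype was compared.

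A C2H2 zinc finger is a short fold in which a pair of cysteines and a pair of histidines hold a zinc ion, and a row of such fingers reads a stretch of DNA. Many proteins of this family carry a KRAB domain in front of the fingers. That domain recruits the corepressor TRIM28, which brings in histone methylation by SETDB1 and HP1 proteins, and the best known targets are retrotransposons. The genes arose by repeated local duplication, so neighbours often resemble each other, and many lie so close to a gene on the other strand that their exons overlap.

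The deposited counts of htseq-count, made by the authors, give each gene 1 number for both replicates together. No value below therefore has a replicate error, and no difference could be tested between conditions. Intervals are exact 95% intervals that cover counting error only. The total on genes was 9495309 pairs, of which the 3 highest genes held 48.5%, and 93.5% of the uniquely placed pairs fell on no annotated feature of the counted strand. Mapping used the type fr-secondstrand, in which read 1 runs along the transcript. The reverse option of htseq-count, which the methods name for stranded paired-end libraries, instead credits a pair to a gene that read 1 runs against. Where both hold, the number listed for a zinc finger gene comes from transcription of the other strand across its exons, and the number listed for its neighbour on the other strand comes from the strand of the zinc finger gene. The 12 housekeeping genes examined had listed counts of 0 to 136, with a median of 10.5. Of 9 markers of luminal prostate cells, KRT8 (6947 counts) and KRT18 (595), keratin genes with exons opposite each other, were high, and the other 7, KLK3 among them, had 8 to 89 counts. The 3 basal markers had at most 1 count and the 3 stromal markers at most 13. Listed counts are therefore used here as a readout of the strand opposite to the zinc finger genes and not as levels of their mRNA.

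How closely genes are annotated on both strands of these loci is best seen in the sequences at which exons lie back to back. The first pair of sequences shows stretches that are annotated as coding on both strands, in capitals, with 10 nt on either side in lower case. For ZNF814 the capitals are 81 nt within chr19:58370261-58370361 (minus strand, GRCh37) and ZNF587 is read from the other strand. For ZNF575 they are 112 nt within chr19:44030657-44030788 (plus strand), opposite a coding exon of ETHE1, which encodes a mitochondrial sulfur dioxygenase, and the listed counts were 221 for ZNF575 and 2 for ETHE1. A longer stretch of 186 nt that is coding in both genes joins ZNF526 (63 counts) and the kinase gene GSK3A (96), and it is not printed.
ZNF814: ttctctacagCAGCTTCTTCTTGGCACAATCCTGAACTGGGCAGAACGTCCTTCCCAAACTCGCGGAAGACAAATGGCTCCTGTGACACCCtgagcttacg
ZNF575: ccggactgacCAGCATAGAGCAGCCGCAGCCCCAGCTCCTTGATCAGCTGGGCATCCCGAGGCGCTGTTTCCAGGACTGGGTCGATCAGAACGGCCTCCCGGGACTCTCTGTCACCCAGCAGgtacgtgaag

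The next sequences show that the finger array itself can lie opposite exons of a noncoding gene. Each is the first finger of 63 nt inside the shared exons, read 5′ to 3′ along the zinc finger gene on GRCh37, with the codons of the cysteines and histidines in capitals. They lie at chr19:9764228-9764290 (ZNF562, minus strand), chr19:42583770-42583832 (ZNF574), chr19:2917043-2917105 (ZNF57), chr19:44501129-44501191 (ZNF155) and chr19:7584837-7584899 (ZNF358), the last 4 on the plus strand.
ZNF562: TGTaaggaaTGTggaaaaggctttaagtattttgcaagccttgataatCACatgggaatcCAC
ZNF574: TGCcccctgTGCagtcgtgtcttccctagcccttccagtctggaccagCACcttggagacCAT
ZNF57: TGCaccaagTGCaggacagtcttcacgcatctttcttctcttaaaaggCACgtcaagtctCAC
ZNF155: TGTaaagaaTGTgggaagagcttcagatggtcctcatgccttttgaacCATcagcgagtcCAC
ZNF358: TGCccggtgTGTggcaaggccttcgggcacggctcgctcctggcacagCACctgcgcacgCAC

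In 8 of the zinc finger genes, at least 1 finger of the canonical coding sequence lay wholly opposite exons of a lncRNA or antisense gene. All 18 fingers of ZNF224, all 13 of ZNF57 and all 6 of ZNF562 did so, against 8 of 10 in ZNF578, 4 of 11 in ZNF155, 2 of 16 in ZNF574, 2 of 9 in ZNF358 and 1 of 19 in ZNF420. The listed counts of these genes were spread widely. ZNF562 had 1037 counts, ZNF574 had 637, ZNF224 had 467 and ZNF57 had 67, while ZNF578 had 15, ZNF155 had 4 and both ZNF358 and ZNF420 had 0. An antisense exon across fingers was therefore annotated both in genes with many listed counts and in genes with none. The counts cover all exons of a gene, and pairs over the fingers alone were not counted. ZNF155 and ZNF578 were named after their values were seen.

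Over the whole family, the listed count was at least 10 in 156 of 244 genes, or 63.9%, where the background over all 19404 protein-coding genes was 44.2%. It was 0 in 30 genes, from 1 to 9 in 58, from 10 to 99 in 112, from 100 to below 1000 in 39 and at least 1000 in 5. The share at 0 was 12.3%, beside 26.3% of all protein-coding genes and 18.8% of ZNF genes of other chromosomes. The median was 17 counts (quartiles 5 and 61.2), and all members together held 27784 counts, 0.293% of the pairs counted on genes. The distribution was steep. ZNF814 alone held 22.8% of these counts, and the 10 highest members held 53.7%.

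Per kb of exonic length, the median listed count was 3.18 for the members, against 1.27 for 256 ZNF genes of other chromosomes, 2.01 for the other 1205 protein-coding genes of chromosome 19 and 1.22 for all protein-coding genes. As counts, the median of 17 compared with 8, 8 and 6. The wide quartiles of the members, 1.04 and 12.2 per kb, contain the medians of each of the other sets. Exonic length was similar in ZNF genes here (median 5467 nt) and elsewhere (5585 nt), and shorter in the other genes of chromosome 19 (3197 nt). The orientation of the members along the chromosome made little difference: 132 genes on the plus strand had a median of 2.73 counts per kb and 112 on the minus strand had 3.6.

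Exons of an opposite-strand gene were found for 84 members (34.4%), close to the background of 36.7% over all protein-coding genes. The share of genes with such exons was thus near the background, whereas the listed counts differed along this line. The 84 genes with opposite exons had a median of 47 counts (8.62 per kb) and held 74.5% of all counts on members, whereas the 160 genes without them had a median of 12 (2.28 per kb), a ratio of 3.92 in counts. Both groups ranged down to 0, and they reached 6341 and 718 counts, so they overlapped broadly. At least 10 counts were listed for 66 of the 84 (78.6%; background of protein-coding genes with opposite exons 63.9%) and for 90 of the 160 (56.2%; background of those without 32.8%).

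Taken as a ratio, the same division was wider in the other sets. As a difference in counts per kb, it was widest in the members. With and without opposite exons, the median count per kb was 6.74 and 0.688 in ZNF genes of other chromosomes, 5.79 and 1.1 in the other genes of chromosome 19, and 4.16 and 0.602 in all protein-coding genes. As ratios, the medians of the members thus lay nearer to those of the other sets where opposite exons were annotated than where they were not, while the differences in counts per kb were larger with opposite exons. No test was made of these differences, since genes are not replicates.

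The 160 genes without opposite exons were of different kinds. For 58 of them a gene on the opposite strand lay over the body without sharing exonic nucleotides, and these had a median of 18 counts (3.95 per kb). The other 102 had no annotated gene on the opposite strand over their body, and their median was 8.5 counts (1.94 per kb). Of these, 50 genes (49%) had at least 10 counts, beside 32.8% of all protein-coding genes without opposite exons. That background is a wider set, because it includes genes with an opposite gene over introns only. Counts of at least 100 were listed for 28 genes with opposite exons, 11 with an opposite gene over introns only and 5 with none. These numbers have no share over all protein-coding genes beside them and are given as a description only. From opposite exons to no opposite gene over the body, the medians stepped down (47, 18 and 8.5 counts) without reaching 0.

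Among the 102 genes without a gene opposite their body, the next gene on the opposite strand beyond the 3′ end, which points towards the member, was under 5 kb away for 17. These had a median of 5.27 counts per kb. At least 10 counts were listed for 13 of the 17, beside 32.8% of all protein-coding genes without opposite exons, again a wider set. The median was 2.57 per kb for 34 genes with a distance of 5 to 20 kb, and 1.27 per kb for 51 genes at 20 kb or more. At least 10 counts were listed for 19 of the 34 and for 18 of the 51, beside the same 32.8%. On the 5′ side, where the next opposite gene points away, the medians were 2.49 per kb under 5 kb (29 genes), 1.38 at 5 to 20 kb (32 genes) and 1.32 beyond (41 genes). The median listed count per kb was higher where an opposite gene lay near, on either side, and the step was larger on the 3′ side. As counts, the medians in the same order were 13, 21.5 and 5 on the 3′ side and 16, 5 and 6 on the 5′ side. On the 3′ side the counts were thus not highest where the opposite gene was nearest.

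The share of exonic length that lay opposite exons of another gene was small in most cases. It was up to 10% in 56 genes (median 3.89 counts per kb), over 10% to 25% in 18 (10.8), over 25% to 50% in 8 (82.6) and over 50% in 2. The corresponding medians over all protein-coding genes were 2.6, 8.37, 19.9 and, over 50%, 36 per kb. The members over 50% were ZNF57 (75.2%, 30.1 counts per kb) and ZNF562 (50.7%, 79.6 per kb). Across the 244 genes, Spearman's rho of the shared exonic length and the listed count was 0.338. For exonic length and listed count the same coefficient was 0.333, and the genes share libraries and neighbours, so the former is given as a description only.

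The values differed with the arrangement of the neighbour. In 34 genes the opposite gene with most shared exonic nucleotides overlapped the 3′ end (tail-to-tail), and the median was 16.4 counts per kb, with a median of 386 shared nt. In 20 genes it overlapped the 5′ end (head-to-head), with 3.3 counts per kb and 223 shared nt. In 24 genes it lay inside the member (2.98 per kb), and in 6 the member lay inside the neighbour (78.8 per kb). Over all protein-coding genes the order was the same, with 8.39, 3.1, 1.86 and 11.8 counts per kb. The opposite gene was a lncRNA for 51 members (7.1 counts per kb), a protein-coding gene for 25 (20.4 per kb) and of another type for 8.

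By the opposite gene with most shared nt, the 20 highest listed counts belonged to members of several arrangements, none of them head-to-head. Shorter head-to-head overlaps with a further gene were annotated for ZNF497, ZNF529 and ZNF473. ZNF814 (ENSG00000204514; chr19:58360099-58400442, minus strand) had 6341 counts (exact Poisson interval 6186 to 6499), or 472 per kb. It spans ZNF587 on the plus strand, with which it shares 2443 exonic nt. ZNF587 had 730 counts (678 to 785; 99.3 per kb), so within this pair the listed counts differed far beyond counting error. In both genes, 16.6% and 17.5% of the windows of 75 nt in their exons occur elsewhere in the genome, and pairs placed at several sites were not counted, which makes these counts uncertain as a share of the transcription there.

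ZNF446 (chr19:58985384-58992597, plus strand) had 1377 counts (1305 to 1452; 289 per kb). Its 3′ part lies opposite SLC27A5, which encodes a liver bile acyl-CoA synthetase and had 925 counts, over 1131 shared nt. ZNF135 (chr19:58570607-58597677, plus strand) had 1194 counts (1127 to 1264; 186 per kb) and shares 2091 nt with ZSCAN18, a SCAN domain zinc finger gene for which 3 counts were listed. Both pairs are tail-to-tail. In the former the listed counts of both genes lay within a factor of 1.5, and in the latter nearly all pairs came from the strand of ZSCAN18 if both settings hold.

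ZNF506 (1212 counts; 127 per kb) and ZNF790 (796; 207 per kb) had high counts although only 246 and 60 of their exonic nt, or 2.58% and 1.56%, lay opposite exons. The gene opposite ZNF506 is a lncRNA without a row in the counts, and ZNF790-AS1 had 186 counts. ZNF552 (805 counts; 269 per kb) shares 126 nt with ZNF586 (185 counts). ZNF562 (1037; 79.6 per kb) shares 6596 nt, the longest stretch of any member, with ZNF561-AS1 (116 counts). Among these 4 genes the longest and the shortest annotated overlap thus stood beside counts of the same order.

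Next in order came ZNF574 with CTB-59C6.3 opposite (637 and 108 counts), ZNF497 with A1BG-AS1 (550 and 485) and ZNF324, of which 82 nt lie opposite the lncRNA ENSG00000269106 (489 and 23). ZNF224, a KRAB zinc finger repressor, and ZNF225-AS1 share 3005 nt (467 and 578 counts). ZNF529 and ZNF529-AS1 share 1711 nt (351 and 239). ZNF473, whose protein takes part in histone pre-mRNA processing, and the lncRNA ENSG00000269091 inside it had 284 counts each. In this group the counts of both strands lay within a factor of 1.5 of each other for ZNF497, ZNF224, ZNF529 and ZNF473, and not for ZNF574 and ZNF324.

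The 5 highest members without opposite exons were ZNF154 (718 counts; 104 per kb), ZNF45 (716; 163 per kb), ZNF471 (602; 88.8 per kb), ZNF132 (584; 160 per kb) and ZNF671 (275; 77.9 per kb). ZNF551 and ENSG00000269026 cross the body of ZNF154, ENSG00000269026 that of ZNF671, and ZNF45-AS1 that of ZNF45, each without shared exons. Nothing is annotated on the opposite strand over ZNF132 and ZNF471. The next opposite gene beyond the 3′ end is ZNF584 (25 counts), 1077 nt from ZNF132, and ZFP28-DT (2 counts), 5934 nt from ZNF471. At their 5′ end, ZNF132-DT (113 counts) starts 294 nt from ZNF132.

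At the other end, 6 members with opposite exons had 0 counts, for which the upper limit of 3 pairs (95%, upper side only) is used in place of the interval. The 5 with the longest shared stretch were ZNF420 (307 nt), ZNF358 (293 nt), ZNF524 (273 nt), ZNF536 (253 nt) and ZNF558 (214 nt). The listed counts of the genes opposite them were not all 0. FIZ1, opposite the 5′ end of ZNF524, had 301 counts, ENSG00000269371 within ZNF358 had 246, ENSG00000269300 within ZNF558 had 153 and ENSG00000267437, opposite the 3′ part of ZNF420, had 132. ENSG00000267223, opposite ZNF536, a neural gene, had 0. In 4 of these 5 pairs the opposite gene thus had listed counts where the zinc finger gene had none. Where both settings hold, those read pairs came from the strand of the zinc finger gene.

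Taking all 74 members whose main opposite gene has a row in the counts, the opposite gene had the higher count in 44 cases, the member in 28, and the counts were equal in 2. For 15 of them the main opposite gene is itself a member, so some pairs enter once from each side. Counts were not scaled by exonic length here, and no share over other protein-coding genes is given. The median was 39 counts for the members and 122 for the opposite genes. Spearman's rho between the counts was 0.204, across genes of the same libraries. Apart from ZNF814, the largest counts for opposite genes, named after their values were seen, were 2115 for ZNF8-DT, opposite the 3′ part of ZNF544 (293), 1762 for ENSG00000269289, opposite ZNF726 (13), 1034 for SRRM5, opposite ZNF428 (76), 925 for SLC27A5, opposite ZNF446 (1377), and 815 for ZNF433-AS1, which contains ZNF433 (82). The opposite gene had the higher count in each of these pairs except that of SLC27A5 and ZNF446.

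In 9 pairs both genes were members on opposite strands, which joins 17 genes because ZNF235 overlaps both ZNF227 and ZNF233. ZNF227 and ZNF235 had 216 and 122 counts over 970 shared nt, of which 16 are coding on both strands, and ZNF233 had 236. ZNF549 and ZNF550 had 433 and 258 counts over 473 nt, both tail-to-tail. ZNF586 and ZNF552 had 185 and 805, and ZNF146, which consists mainly of fingers, and ZNF565 had 74 and 35. The head-to-head pairs had 4 to 88 counts, apart from ZNF529. ZNF570 and ZNF569 had 88 and 4 counts, ZNF383 and ZNF585B had 22 and 58, and ZNF382 and ZNF529 had 26 and 351.

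Along the chromosome, a gap of more than 500 kb between neighbouring members was taken as the end of a group. This gave 20 groups: 11 clusters of at least 3 genes with 233 members, 2 pairs and 7 single genes. The distal cluster of the long arm, from ZNF264 to ZNF446 (chr19:57702868-58992597), held 42 genes in 1.29 Mb and 53.8% of all counts on members. Its median was 34 counts (5.66 per kb), and ZNF814 (6341), ZNF446 (1377) and ZNF135 (1194) were its highest genes. Opposite exons were found for 17 of its 42 genes, with a median of 293 counts against 16 for the others.

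The cluster from ZNF565 to ZNF573 (chr19:36673178-38307940) had the highest share of genes with opposite exons, 15 of 26 (57.7%), and the highest median of the 11 clusters per kb, 8.11. At least 10 counts were listed for 23 of these 26 genes, beside 44.2% of all protein-coding genes. ZNF790 (796), ZNF529 (351) and ZNF585A (260) were highest. Here the 15 genes with opposite exons (median 58 counts) and the other 11 (median 44) were nearly alike. The cluster from ZNF575 to ZNF180 (chr19:44029649-45004576) had a median of 3.84 per kb over 22 genes. ZNF45 (716), ZNF224 (467) and ZNF233 (236) were its highest genes, and the medians were 122 counts with opposite exons and 16 without.

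The next largest clusters by number of genes had lower medians. The pericentromeric cluster from ZNF101 to ZNF254 (chr19:19779605-24312770) spread 37 genes over 4.53 Mb, with a median of 2.57 counts per kb. ZNF506 (1212), ZNF101 (129) and ZNF66 (128) were its highest genes, and 9 had opposite exons. ZNF91, a repressor of SVA retrotransposons with 31 fingers, lies there and had 42 counts (4.07 per kb). The cluster from ZNF175 to ZNF331 (chr19:52074536-54083523) held 39 genes with a median of 2.05 per kb and no gene above 212 counts. ZNF175 (212), ZNF83 (166) and ZNF611 (137) led it, and ZNF534 had 0 counts there.

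Towards the end of the short arm, the cluster from ZNF653 to ZNF791 (chr19:11594242-12750912) had the lowest median of the 11 per kb, 1.05, over 25 genes, of which 5 had 0 counts and 5 had opposite exons. ZNF44 (141), ZNF791 (98) and ZNF433 (82) were highest. The cluster from ZNF414 to ZNF846 (13 genes; median 1.18 per kb) was low as well, apart from ZNF562 (1037), and its next genes were ZNF561 (35) and ZNF121 (30). The cluster from ZNF554 to ZNF77 had 5 genes at 0 to 87 counts, led by ZNF554 (87), ZNF57 (67) and ZNF555 (15). Apart from ZNF562, these 3 clusters thus held no member above 141 counts.

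Of the remaining clusters, that from ZNF628 to ZNF835 (16 genes; 2.64 per kb) was led by ZNF471 (602), ZNF582 (97) and ZNF583 (49). ZNF302 to ZNF792 (5 genes) was led by ZNF181 (98), ZNF30 (45) and ZNF302 (32), and that from ZNF546 to ZNF780A held ZNF546 (110), ZNF780A (58) and ZNF780B (29). The pairs were ZNF557 (60) with ZNF358 (0) and ZNF574 (637) with ZNF526 (63). Single genes ranged from 0 counts for ZNF536 and ZNF541 to 174 for ZNF507 and 284 for ZNF473.

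**Figure D1:**
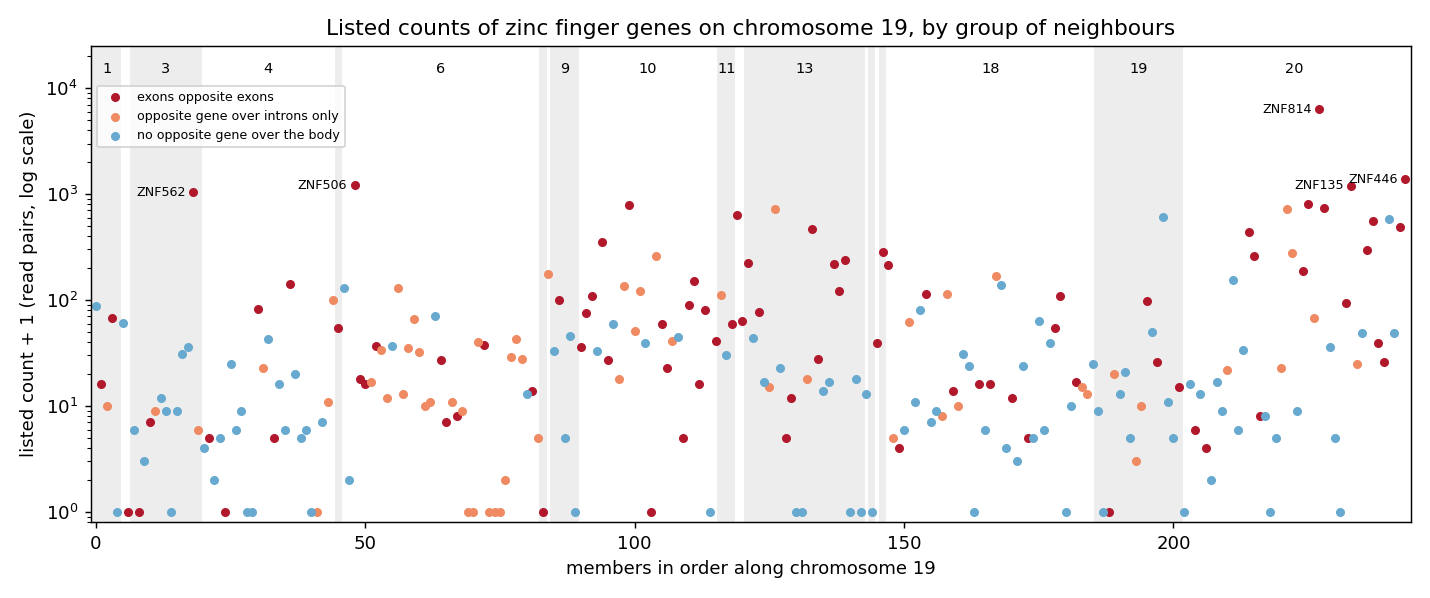
The 244 members are placed in their order along chromosome 19, with the listed count plus 1 on a log y axis; color gives the kind of overlap, shading alternates between the 20 groups, and numbers mark the clusters of at least 3 genes. The 5 members above 1000 counts are ZNF562, ZNF506, ZNF814, ZNF135 and ZNF446, and the last cluster holds 3 of them.

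The number of fingers showed little relation to the listed count. The canonical coding sequence of 240 members could be read, and it held 1 to 36 fingers of the pattern with 2, 12 and 3 residues between the cysteines and histidines, with a median of 12. ZNF208 had the most, and 7 counts. Spearman's rho of the number of fingers and the listed count was -0.0371 over the 240 genes. The median was 11 fingers with opposite exons, 13 with an opposite gene over introns only and 12 without one.

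Near-identical copies bear on how pairs of this family were counted, since pairs placed at several sites were left out. The share of windows of 75 nt in the exons that occur again in the genome was small for most members, with a median of 0.534%, and 77 members had none. It was over 10% in 13 members, with the highest share, 37.6%, in ZNF98. These 13 had a median of 8.71 counts per kb, against 2.76 for the others. Pairs in exons shared by genes on the same strand are ambiguous and were not counted either. The 91 members that share exonic nucleotides with another gene on their own strand had a median of 2.38 counts per kb, and the other 153 had 3.98. The part of these features in the counts was not tested.

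A start of a gene on the opposite strand within 1000 nt of the start of the member was annotated for 55 members. At least 10 counts were listed for 40 of these (72.7%) and for 116 of the other 189 (61.4%), beside 44.2% of all protein-coding genes. The median counts were 26 and 15. Promoter sequences of RefSeq (GRCh38.p14, 250 nt before to 50 nt after the start) matched 214 members by symbol. Their median GC content was 59.3% with 20 CpG dinucleotides, against 58% and 12 over the 27305 genes of that table, and it was 60.7% and 59.2% with and without an opposite start nearby. The promoters of the family thus had more CpG dinucleotides than the median over all genes of that table, which was not limited to protein-coding genes. The medians were 20 with and 19.5 without an opposite start within 1000 nt.

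The corepressor that works with KRAB zinc finger proteins was examined from a list of 15 genes, of which 14 have a row in the counts. At least 10 counts were listed for 11 of them, beside 44.2% of all protein-coding genes, and the median was 21.5. TRIM28 itself, which lies beyond the distal cluster on chromosome 19, had 1 count and no annotated exon on the opposite strand. SETDB1, the histone methyltransferase, had the highest count, 205, and shares 948 exonic nt with CERS2 on the opposite strand. The HP1 genes CBX1, CBX5 and CBX3 had 81, 46 and 13 counts. These values too are listed counts and not levels of mRNA.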

How the data were processed

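Poly(A)+ RNA of LNCaP cells was measured in 2 biological replicates of a single condition. Per the methods and the submitters' processing notes, the authors used Trimmomatic 0.30 for trimming, TopHat2 2.0.12 with Bowtie2 2.2.3 for mapping to hg19 (library type fr-secondstrand), and counted pairs with HTSeq 0.6.1p1 on a GTF file complemented with HIPSTR. The deposited counts are whole numbers without normalization, both replicates in 1 column, followed by 5 summary categories that were kept out of all totals (their pairs on no feature are 93.5% of the uniquely placed pairs).

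Identifiers were matched without version to GENCODE 44 on GRCh37, the build called hg19 (55538 of 57820 Ensembl identifiers). This annotation is not the one used for counting. Exonic length is the union of all exons, and opposite exons share at least 1 nt on the other strand with any annotated gene. The opposite gene named for a member is that with most shared nt. Windows of 75 nt were searched on both strands of the genome. CPM used the total on genes. Interval overlap, clusters, orientations, finger search and ratios of medians were tested on made-up data. Python 3.11.15, numpy 2.4.6, scipy 1.17.1 and matplotlib 3.10.9 were used.

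The named genes are the 20 members with the highest counts, the 3 highest of each cluster, the 5 highest without opposite exons, members with over 50% of their length opposite exons, up to 5 members with opposite exons and 0 counts, their opposite genes, ZNF91, ZNF534, and lists of corepressor, housekeeping, luminal, basal, stromal and other zinc finger genes. The other members of pairs, those with the highest counts for the opposite gene, and those with fingers opposite lncRNA exons were named after their values were seen. The members and lists were chosen with earlier results of these data known. Alternatives tried were the minimum count, the minimum overlap, the type of opposite gene, counts per kb, genes with at least 1 count, exons shared on the own strand, the correlation measure, the gap between clusters, the genes that form clusters and the library size. Since there is 1 condition and 1 column, no test was made. Of the first fingers opposite exons of a lncRNA or antisense gene in 8 members, 5 are printed and the others are not reported here.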

Additional observations from a re-analysis of the deposited data

How the results depend on the processing

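Of 27 alternatives to 9 results, 22 stayed within a factor of 1.5 of the reported value (correlations within 0.1) and none turned its direction. Restricting members to the 153 without exons shared on their own strand left 102 genes with at least 10 counts. This number comes from a smaller set than the 156 of 244 members (63.9%), and the background was 44.2% of all protein-coding genes. Counting only protein-coding genes as opposite genes left 28 members with opposite exons, and the ratio of medians with and without them was then 7. The ratio of the members' median count to that of ZNF genes of other chromosomes, 2.12, was 1.27 among genes with opposite exons and 3 among genes without, a division added after the data were seen. All members together had 2926 CPM, and 5683 CPM without the 3 highest genes in the library size. With gaps of 250 or 1000 kb the number of groups was 25 or 16. No paired analysis was possible because both replicates are in 1 column, and leaving out a replicate could not be done for the same reason. The median of 17 pairs per member limits the precision of single genes.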

Other observations

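Genes named after zinc finger genes of chromosome 19 but outside the rule, that is, their antisense and divergent transcripts, readthrough genes and pseudogenes, numbered 51 in the deposited counts. Their median was 9 counts, and 14 had 0. At least 10 counts were listed for 25, beside 44.2% of all protein-coding genes. That is an unlike set, because most of the 51 are lncRNAs or pseudogenes. The highest were 2115 for ZNF8-DT, 815 for ZNF433-AS1, 578 for ZNF225-AS1, 346 for the pseudogene ZNF56P and 333 for ZNF571-AS1. The readthrough gene ZNF559-ZNF177 had 266 counts, while ZNF177 itself, with 90.6% of its exonic length shared on its own strand, had 11.

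Zinc finger genes of chromosome 19 with other names, 16 in all, had a median of 32.5 counts, and 9 of them had at least 10 counts, beside the same 44.2%. ZSCAN22 had 284 counts, ZFP28 had 181, ZSCAN5A had 156, ZFP14 had 139 and ZFP30 had 110. The imprinted gene PEG3 had 0 counts although 3824 of its exonic nt lie opposite exons of ENSG00000286125, and its neighbour ZIM2 had 80. ZFP36, which encodes an RNA-binding protein with another type of zinc finger and entered by its symbol, had 3.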
